A study of Mus musculus with 20 samples.

Results

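The mouse carboxylesterase family was examined through 10 genes, Ces1b, Ces1c, Ces1d, Ces1e, Ces1f, Ces1g, Ces2a, Ces2e, Ces3a and Ces3b, which were taken by gene symbol from count tables that list 22298 genes. Each symbol matched exactly 1 entry in all 20 tables, and all 10 members were among the 12342 genes that passed the filter on low counts and were tested. The libraries were poly-A RNA sequencing of whole liver from male Lepr db/db mice, which lack the signalling leptin receptor and become obese and diabetic. The mice received at 5 weeks of age, by tail vein, an AAV8 vector that carried either a non-targeting shRNA (Vec) or 4 shRNAs against Pparg in 1 construct (shRNA), and then daily gavage for 4 weeks with the vehicle CMC-Na or with benzbromarone (BBR), a URAT1 inhibitor that lowers uric acid, at 25 mg/kg. The 4 groups were therefore Vec, Vec+BBR, shRNA and shRNA+BBR, with 5 mice in each. All mice carried the db/db genotype and an AAV8 vector, had been fasted for 6 h, and no lean or uninjected liver is among the groups, so every difference below is a difference between obese, vector-treated livers.

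Carboxylesterases are serine hydrolases, most of them held in the lumen of the endoplasmic reticulum of hepatocytes, that cleave ester, amide and carbamate bonds in drugs and in lipids. In mice the family expanded into clusters of neighbouring genes on chromosome 8. Ces1d is known as triacylglycerol hydrolase, which mobilises stored triglyceride for VLDL, and Ces1g is a relative of human CES1. Ces1c is the carboxylesterase secreted into mouse plasma, Ces1e is egasyn, which retains beta-glucuronidase in the endoplasmic reticulum and Ces2a is known as an inducible gene of the xenobiotic receptors CAR and PXR.

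On GRCm38 (GENCODE M21), the 6 Ces1 members lie on the minus strand between positions 93056728 and 93337308 of chromosome 8, and the Ces2 and Ces3 members lie on the plus strand between 104734003 and 105093929. The RefSeq promoter table (GRCm38.p6, 250 bases before and 50 after each start) held 7 of the 10 members, with 2 starts for Ces1b, of which the upstream 1 is shown; Ces1d, Ces1f and Ces3a were not matched. The promoters of Ces1b, Ces1c and Ces2a are shown because these are the members that were lower with BBR. Capitals mark CCAAT, the half-site AGGTCA of nuclear receptors and AGTTCA, a half-site described for PXR, each read on either strand.
Ces1b, chr8:93079968-93080267, minus strand: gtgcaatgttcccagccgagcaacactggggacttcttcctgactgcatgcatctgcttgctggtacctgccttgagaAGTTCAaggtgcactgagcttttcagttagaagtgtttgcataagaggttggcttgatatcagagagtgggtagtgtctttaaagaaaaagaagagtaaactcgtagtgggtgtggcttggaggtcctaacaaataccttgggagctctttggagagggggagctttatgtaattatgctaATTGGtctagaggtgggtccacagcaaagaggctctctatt
Ces1c, chr8:93131234-93131533, minus strand: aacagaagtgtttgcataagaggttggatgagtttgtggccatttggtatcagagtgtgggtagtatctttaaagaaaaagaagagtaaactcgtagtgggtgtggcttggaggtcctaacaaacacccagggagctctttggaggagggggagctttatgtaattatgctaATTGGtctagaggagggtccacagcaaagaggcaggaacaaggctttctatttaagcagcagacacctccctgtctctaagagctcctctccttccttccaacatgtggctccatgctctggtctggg
Ces2a, chr8:104733753-104734052, plus strand: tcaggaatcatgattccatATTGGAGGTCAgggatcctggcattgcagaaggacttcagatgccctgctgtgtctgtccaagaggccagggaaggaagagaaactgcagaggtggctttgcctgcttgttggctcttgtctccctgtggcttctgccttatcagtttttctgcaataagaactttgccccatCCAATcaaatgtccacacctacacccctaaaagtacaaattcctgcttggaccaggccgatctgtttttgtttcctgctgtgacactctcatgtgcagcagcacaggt
The Ces1b and Ces1c promoters were identical at 93.9% of 197 aligned bases, whereas Ces1b and Ces2a were identical at 50.7% of 274. A CCAAT sequence in one or the other orientation was present in each of the 3 promoters, and in 37.4% of all 32534 RefSeq mouse promoters. AGGTCA was present in the Ces2a promoter alone among them, at position -226 from the start, where it directly follows a CCAAT sequence on the other strand, and in 16.3% of all promoters. AGTTCA was present in the Ces1b window alone of the 3, at -172, and in 14.0% of all promoters. The Ces1c window opens at bases that match Ces1b downstream of this site. The matching position of Ces1c was therefore not read, and Ces1b and Ces1c cannot be compared for AGTTCA here. TATAAA was in none of the 3 windows and in 13.6% of all promoters. A pair of AGGTCA half-sites 1 base apart, the arrangement known for PPAR with RXR, was found in 13 of the 32534 promoters and in none of those of the 7 members held. These are matches of letters in a window and not measured sites of binding.

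The members differ in how well short reads can tell them apart. The coding sequences of Ces3a and Ces3b were identical at 95.3% of 1713 aligned bases and those of Ces1b and Ces1c at 90.9% of 1662, whereas Ces2a and Ces2e were identical at 83.3%. Of all stretches of 50 bases in the Ces3a transcript, 30.9% occur unchanged in Ces3b, and 9.09% of its stretches of 100 bases do. For Ces1b, 9.92% of the stretches of 50 bases and 1.29% of those of 100 bases occur in Ces1c. Ces2a shares 20.9% of its stretches of 50 bases, and 10.8% of those of 100, with the predicted gene Gm7208. Ces1d, Ces1e, Ces1f, Ces1g and Ces2e share none of 100 bases with any other annotated transcript. In the count tables, Ces1b, Ces1c, Ces3a and Ces3b had a fractional count in each of the 20 libraries, whereas Ces1f had a whole number in all 20 and Ces2a in all but 2. How the fractions arose is not given in the sources used here. The values of Ces1b beside Ces1c, and of Ces3b beside Ces3a, are therefore uncertain by an amount that the tables do not give. Ces2a shares more of its stretches of 100 bases, and of 150 bases (4.03%), than any other member. Its values, and the calls below, carry the same uncertainty with respect to Gm7208.

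**Figure D1:**
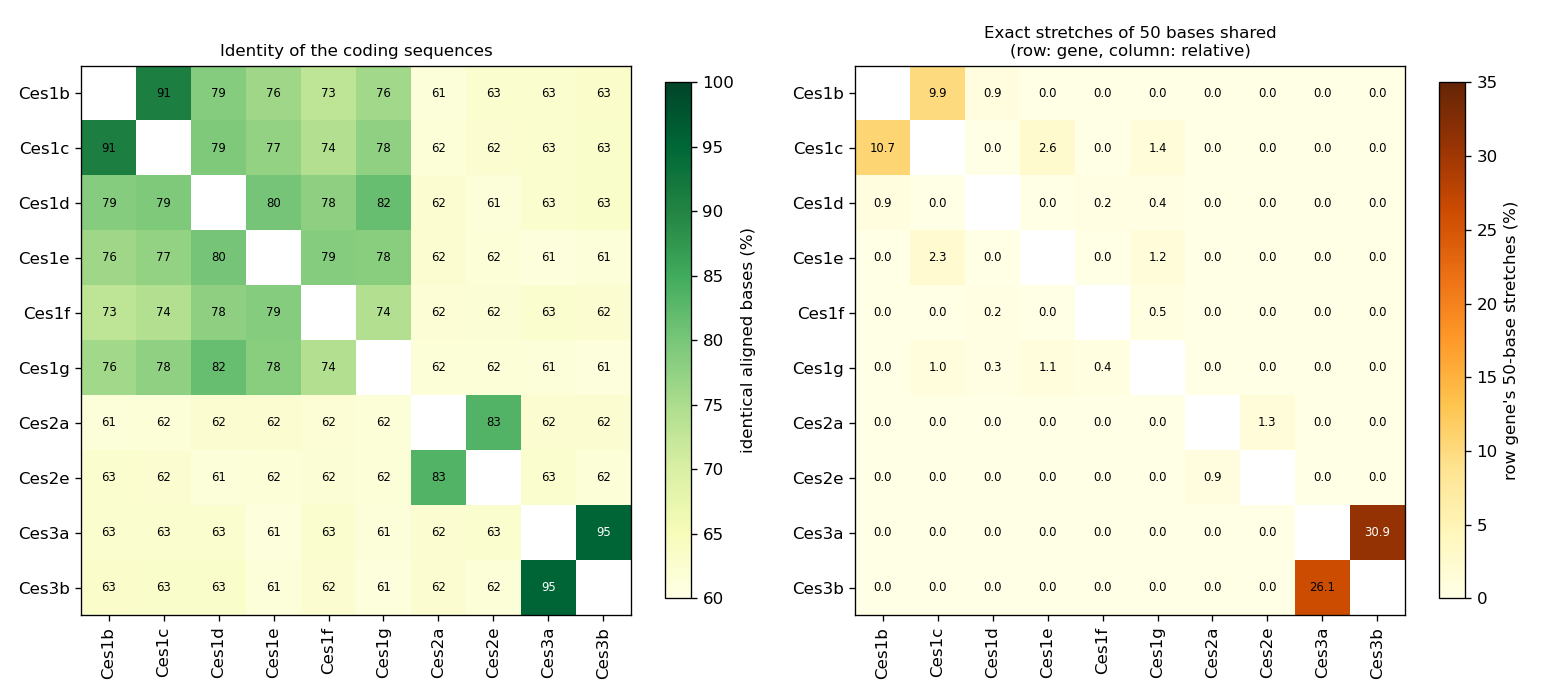
Left, identity of the aligned coding sequences (%) for each pair of members. Right, share (%) of the row gene's stretches of 50 bases that occur unchanged in the column gene, where Ces3a with Ces3b (30.9%) and Ces1b with Ces1c (9.92%) stand out.

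The libraries held between 17432904 and 25024099 counts in total, so that a count of 3 corresponds to between 0.121 and 0.193 CPM, a count relative to the library size, which was scaled here by TMM factors. Mitochondrial genes took between 9.14% and 16.2% of the counts, with a mean of 9.80% ± 0.654 (SD, n = 5) in Vec and 13.1% ± 2.33 in shRNA+BBR. The targeted gene Pparg, the nuclear receptor PPARγ, had 16.4 to 35.9 CPM in Vec, 28.02 to 38.3 in Vec+BBR, 3.24 to 7.31 in shRNA and 7.19 to 21.8 in shRNA+BBR. Neither knockdown group overlapped with its Vec counterpart, and Pparg changed by -2.11 ± 0.279 (log2, SE) with the knockdown under vehicle (edgeR adjusted p = 4.47e-05) and by -1.20 ± 0.263 under BBR (edgeR adjusted p = 0.00843). The knockdown was partial, and Pparg itself was higher in shRNA+BBR than in shRNA, with a log2 difference of 1.28 ± 0.278 (edgeR adjusted p = 0.00773). Hepatocyte markers, 7 of 8 listed and all above 3 counts, summed to 122223 to 154934 CPM in Vec, 88632 to 125178 in Vec+BBR, 115469 to 131232 in shRNA and 105054 to 122507 in shRNA+BBR. All 8 stellate cell markers were detected, summing to 162 to 301 CPM in Vec, 336 to 361 in Vec+BBR, 202 to 271 in shRNA and 268 to 393 in shRNA+BBR. The 8 endothelial markers summed to 102 to 138, 132 to 186, 140 to 182 and 126 to 185 CPM, and 5 of 6 cholangiocyte markers (Cftr at or under 3 counts) to 24.03 to 45.4, 50.3 to 96.6, 25.9 to 34.4 and 31.0 to 87.7 CPM in the same order. Over all libraries the macrophage markers summed to 121 to 329 CPM, the erythroid to 388 to 2300.2, the adipocyte (Plin1 and Acvr1c at or under 3 counts) to 12.5 to 27.4, the intestinal (Sis, Cdx2 and Muc2 at or under 3 counts) to 43.7 to 102, the pancreatic acinar (4 of 6 listed genes at or under 3 counts) to 2.31 to 5.91 and the lymphocyte to 0.514 to 5.16. The stellate sum was higher in Vec+BBR than in Vec without overlap, and the hepatocyte sum was lower, with ranges that overlapped. Most of the hepatocyte sum was albumin, Alb, with a mean of 109728 CPM in Vec and 91170 in Vec+BBR. Alb was not called (-0.27, edgeR adjusted p = 0.114), whereas 4 of the 7 hepatocyte markers were called lower and 0 higher, where 7.88% of all genes tested were lower. Most of the cholangiocyte sum was Spp1, with a mean of 30.5 CPM in Vec and 61.1 in Vec+BBR. With BBR in Vec mice Spp1 was called higher, 1 of 5 tested cholangiocyte markers, where 7.58% of all genes tested were higher. In Vec, Fabp2 (59.7 CPM) made up most of the intestinal sum and Lipe (19.1 CPM) most of the adipocyte sum. The part of these sums in the results of the members described next was not tested. In whole liver, fewer hepatocytes and less of a transcript per hepatocyte cannot be told apart.

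The 10 members together took 0.496% ± 0.0409 (SD, n = 5) of all counts in Vec, 0.432% ± 0.0142 in Vec+BBR, 0.421% ± 0.0350 in shRNA and 0.377% ± 0.0581 in shRNA+BBR. Levels of different genes were compared in FPKM, which divides by transcript length. Ces1c was the highest in Vec at 883 ± 130.0 FPKM (SD, n = 5), above Ces1d at 466 ± 158 with no overlap of their ranges. Ces3a (428 ± 125), Ces1g (190.1 ± 30.7), Ces1f (186 ± 28.04), Ces2e (126 ± 19.5), Ces2a (82.2 ± 16.6), Ces1e (78.5 ± 17.0), Ces3b (49.3 ± 21.6) and Ces1b (27.8 ± 10.1) followed, and from Ces1d downwards every neighbour in that order overlapped with the next. In Vec+BBR the plasma enzyme Ces1c (501 ± 41.3 FPKM) stood below Ces1d (607 ± 49.3), the triacylglycerol hydrolase, with no overlap. In shRNA, Ces1c (886 ± 47.5) was again above Ces1d (462 ± 84.0), and Ces3a had moved from the third to the fifth place at 146 ± 49.7 FPKM, overlapping with its neighbours Ces2e (153 ± 22.4) and Ces1f (116 ± 23.1). In shRNA+BBR the ranges of Ces1c (590.2 ± 100.002) and Ces1d (508 ± 126) overlapped. As a share of the family's summed FPKM, Ces1c made up 35.4% ± 6.88 in Vec, 23.1% ± 1.85 in Vec+BBR, 41.3% ± 1.64 in shRNA and 30.9% ± 2.57 in shRNA+BBR. Ces3a made up 17.0% ± 4.93, 16.4% ± 3.31, 6.91% ± 2.78 and 10.1% ± 2.32 in the same order.

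**Figure D2:**
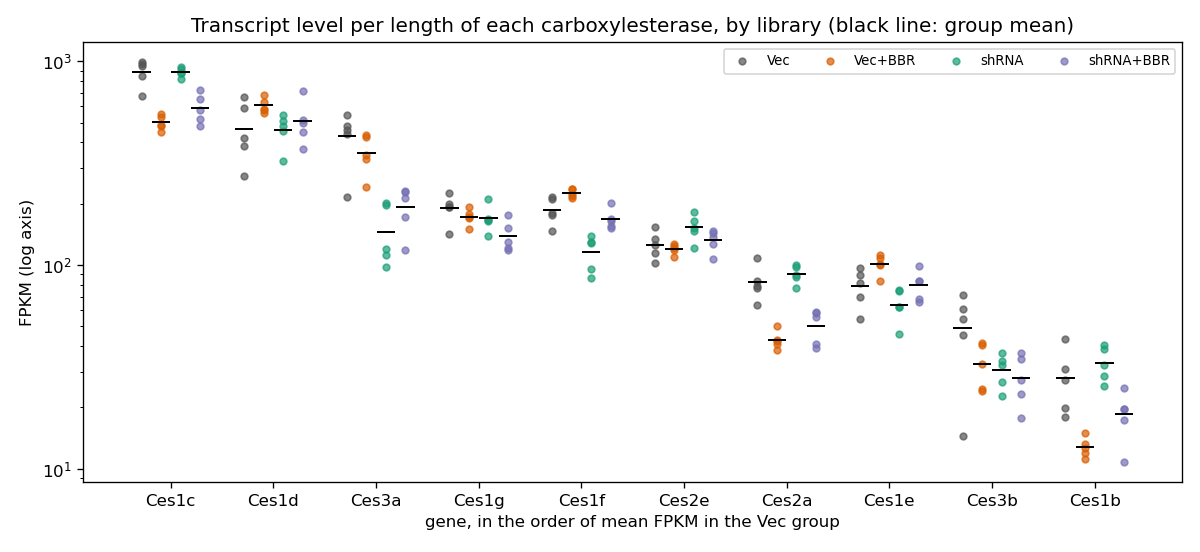
FPKM (log axis) of each member in every library, with genes in the order of their mean in Vec, groups by colour and black lines at the group means. Ces1c and Ces1d are highest and Ces1b lowest in most groups, and Ces3a falls from 428 FPKM in Vec to 146 in shRNA.

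BBR lowered 3 members in mice with the control vector, namely Ces1b, Ces1c and Ces2a, to 0.419, 0.517 and 0.476 times their level in Vec, and left the other 7 without a call. Among all 12342 genes tested, 7.88% were called lower and 7.58% higher in Vec+BBR than in Vec, and among the members 3 of 10 were lower. The median log2 fold change over the members was -0.34, beside -0.01 over all genes tested. With the Pparg shRNA, the same 3 members were lower with BBR and Ces1f was higher, against 7.28% of genes called lower and 8.37% higher in that comparison. The 2 comparisons use different mice throughout.

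Ces1c, the plasma carboxylesterase, had 1850, 2020, 1308, 1808 and 1577 CPM in the 5 Vec libraries and 931, 723, 964, 947 and 866 CPM in Vec+BBR. The shRNA libraries had 1602, 1453, 1677, 1559 and 1688 CPM, and those of shRNA+BBR had 1288, 1087, 965, 865 and 1147 CPM. Each BBR group lay wholly below its vehicle group, and the ranges of both vehicle groups overlapped. With BBR it changed by -0.95 ± 0.121 (log2, SE) in the Vec background (edgeR adjusted p = 7.93e-05), and in the shRNA background by -0.58 ± 0.120 (edgeR adjusted p = 0.0062).

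Ces1b, the close neighbour of Ces1c, had 57.2, 69.1, 37.7, 85.1 and 39.7 CPM in Vec and 22.9, 22.8, 24.7, 21.9 and 28.9 CPM in Vec+BBR. In the knockdown mice it had 63.7, 48.9, 76.0, 54.7 and 78.1 CPM with vehicle and 47.7, 40.3, 34.9, 20.9 and 36.8 CPM with BBR. The Vec+BBR libraries were narrowly spread and lay below all Vec libraries, and the knockdown groups did not overlap either. Ces1b changed by -1.25 ± 0.214 (log2, SE) in Vec mice (edgeR adjusted p = 0.00087), and in shRNA mice by -0.83 ± 0.211 (edgeR adjusted p = 0.0154). Between the groups given BBR, the knockdown difference was 0.58, with an interval of 0.13 to 1.02, and was not called (edgeR adjusted p = 0.0961), although without shRNA+BBR replicate 4 it was 0.72 and passed (edgeR adjusted p = 0.0287). Ces1b counts were 3.33% ± 0.839 (SD, n = 5) of the Ces1c counts in Vec, 2.77% ± 0.449 in Vec+BBR, 4.00% ± 0.573 in shRNA and 3.33% ± 0.549 in shRNA+BBR, so a few percent of Ces1c reads counted for Ces1b would move Ces1b by as much as its own level. The sum of both genes, which does not depend on how reads shared by the pair were assigned, was 1771 ± 291 CPM in Vec and 910.2 ± 98.4 in Vec+BBR, and 1660.1 ± 108 and 1106 ± 172 in the knockdown groups, without overlap within either pair.

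Ces2a, the CAR and PXR responsive member, had 174, 244, 132, 147 and 157 CPM in Vec and 103, 72.8, 82.3, 69.7 and 79.2 CPM in Vec+BBR. It had 185, 147, 168, 163 and 190.3 CPM in shRNA and 106, 118, 77.7, 78.8 and 109 CPM in shRNA+BBR. No library with BBR reached the lowest of the libraries without it, with or without knockdown. The log2 fold change was -1.07 ± 0.154 in Vec mice (edgeR adjusted p = 0.000233) and -0.80 ± 0.153 in shRNA mice (edgeR adjusted p = 0.00447). Its close relative Ces2e, with 221 to 332 CPM in Vec and 210.1 to 256 in Vec+BBR, was not called, at -0.20 with an interval of -0.45 to 0.05 in Vec mice and the same 2 rounded bounds in shRNA mice.

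**Figure D3:**
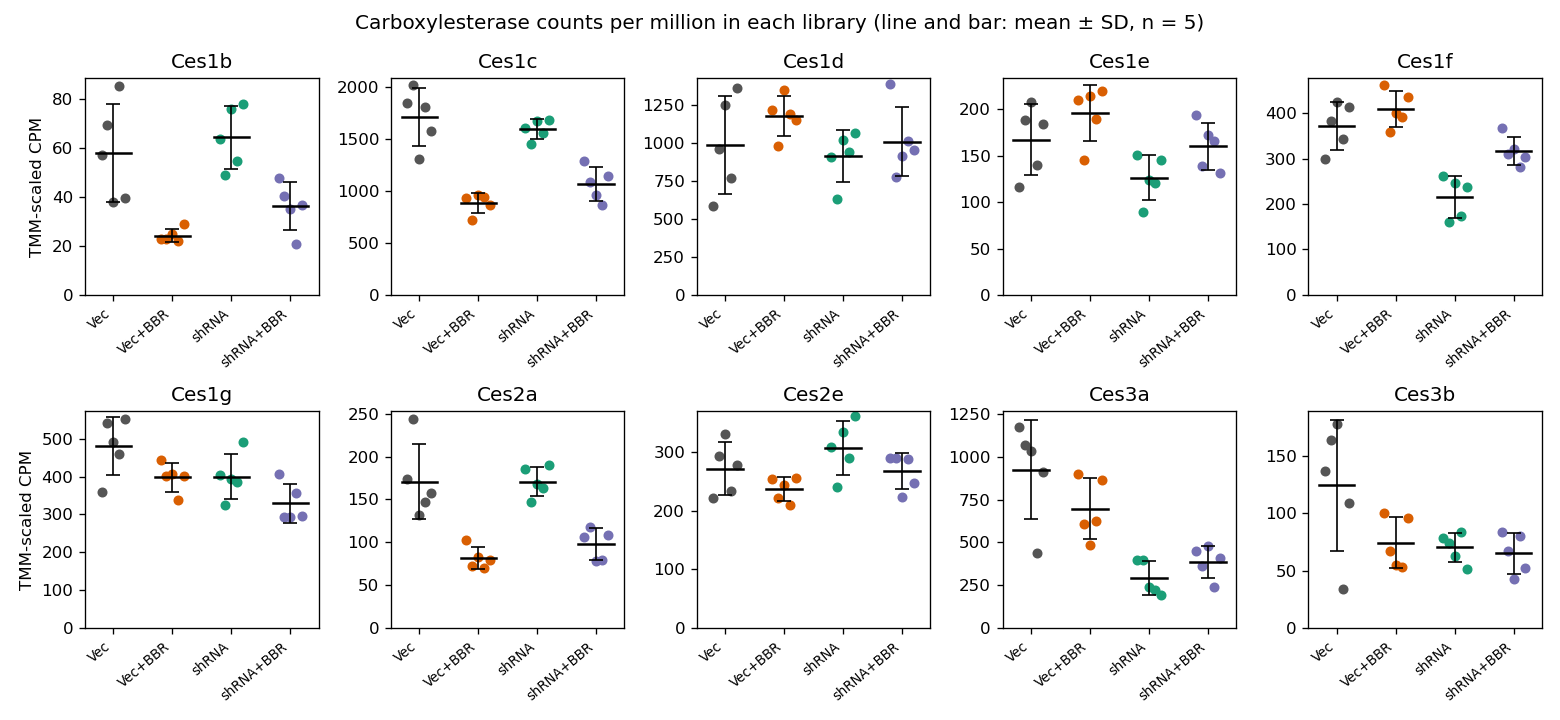
TMM-scaled CPM of each member in every library (points), with the group mean and SD (black, n = 5). Both BBR groups of Ces1b, Ces1c and Ces2a sit below their vehicle groups, and both shRNA groups of Ces3a sit below their Vec groups.

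PPARγ knockdown was compared with the control vector under each treatment. Under vehicle, Ces1f and Ces3a were lower in shRNA than in Vec, 2 of 10 members where 7.91% of all genes tested were called lower and 5.28% higher. The median over the members was -0.19 on the log2 scale, beside -0.01 over all genes. With BBR given to both, the knockdown lowered Ces3a alone, 1 of 10 where 4.82% of all genes were called lower and 3.31% higher, and the median over the members was -0.21, beside -0.00 over all genes. The 2 knockdown comparisons also use different mice throughout, but each shares its groups with the BBR comparisons above.

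Ces3a had 1178, 1067, 1037, 436 and 909.4 CPM in Vec and 399, 397, 242, 221 and 193 CPM in shRNA. The lowest Vec library was close to the highest shRNA library, and the groups did not overlap. The log2 fold change was -1.67 ± 0.263 (SE), a 3.19-fold lower level (edgeR adjusted p = 0.000248). Under BBR it had 898, 611, 486, 625 and 865 CPM with the control vector and 448, 361, 477, 237 and 411 CPM with the shRNA. These groups were separate by a narrow gap, with a difference of -0.85 ± 0.258 on the log2 scale (edgeR adjusted p = 0.0444). This call was close to the threshold. It was lost under limma-voom (adjusted p = 0.05 after rounding, and not under the threshold) and when any 1 library was left out other than Vec+BBR replicate 3, with adjusted p-values from 0.0139 to 0.107 over its 20 alternatives and the direction kept in all of them.

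Ces3b was not called in any comparison. It had 137, 164, 178, 33.9 and 109 CPM in Vec, where replicate 4 stood lowest as it did for Ces3a, and 51.5 to 83.9 CPM in shRNA. The log2 fold change under vehicle was -0.82, with a 95% interval of -1.46 to -0.19 (edgeR adjusted p = 0.0761), and without Vec replicate 4 it was -1.06 (edgeR adjusted p = 0.00235). For BBR in Vec mice it was -0.74 (edgeR adjusted p = 0.101), and -0.98 without that replicate (edgeR adjusted p = 0.00668). Ces3b counts were 12.8% ± 3.65 (SD, n = 5) of the Ces3a counts in Vec, 10.6% ± 1.18 in Vec+BBR, 25.8% ± 7.70 in shRNA and 18.6% ± 9.50 in shRNA+BBR. The sum of both Ces3 genes was 1049.9 ± 342 CPM in Vec, 771 ± 199 in Vec+BBR, 361 ± 107 in shRNA and 452 ± 86.5 in shRNA+BBR. Unlike Ces3a alone, this sum overlapped between Vec (470.0 to 1315 CPM) and shRNA (244 to 478 CPM). Vec+BBR (541 to 998 CPM) and shRNA+BBR (317 to 532 CPM) did not overlap.

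Ces1f had 298, 382, 424, 342 and 413 CPM in Vec and 261, 161, 245, 173 and 238 CPM in shRNA. In Vec+BBR it had 461, 359, 399, 392 and 435 CPM, and in shRNA+BBR 366, 309, 320.0, 281 and 304 CPM. The shRNA group lay below both Vec and shRNA+BBR without overlap. The knockdown changed it by -0.79 ± 0.130 (log2, SE) under vehicle (edgeR adjusted p = 0.000413). With BBR it was higher by 0.55 ± 0.130 in shRNA mice (edgeR adjusted p = 0.0111). Both calls use the same shRNA libraries and are not independent of each other. In Vec mice the difference with BBR was 0.14, with an interval of -0.13 to 0.41, and the knockdown difference under BBR was -0.37, with an interval of -0.64 to -0.10 (edgeR adjusted p = 0.0764). Of its stretches of 50 bases 1.6% occur in other transcripts, and all its counts were whole.

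**Figure D4:**
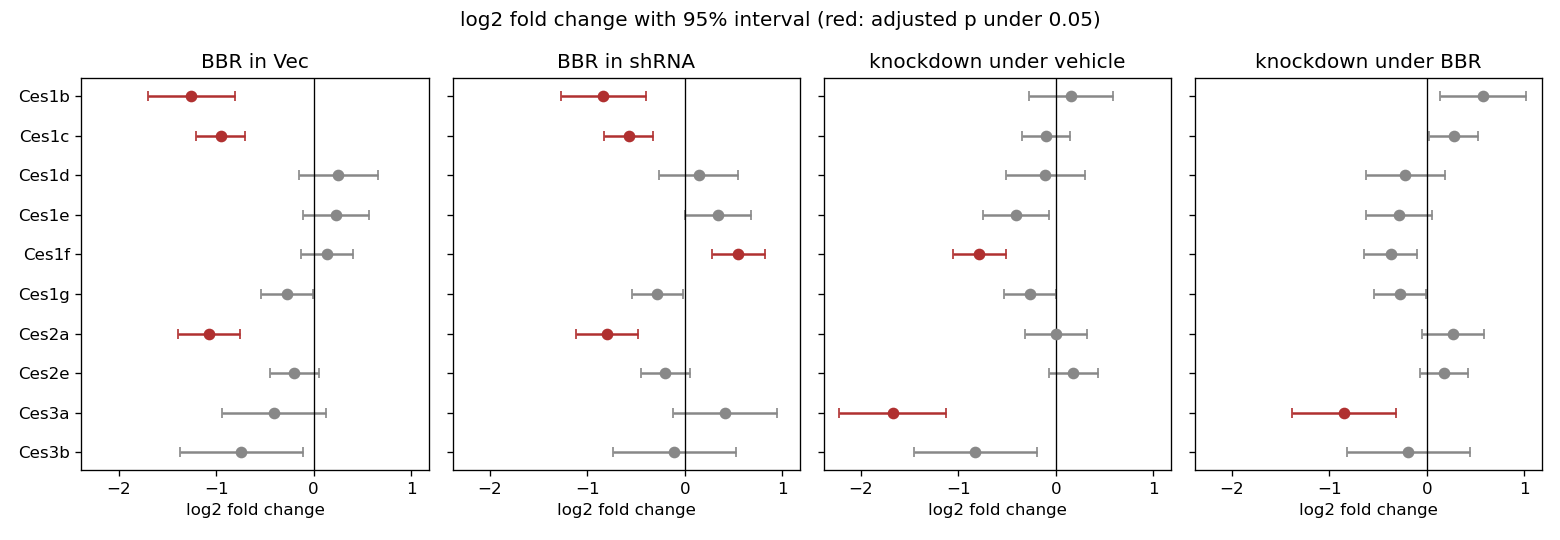
Fitted log2 fold change (x axis) of each member with its 95% interval, in 4 comparisons, red where the edgeR adjusted p was under 0.05. Ces1b, Ces1c and Ces2a are lower with BBR in both vector groups, and Ces3a is lower with the knockdown under both treatments.

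Ces1d, Ces1e, Ces1g and Ces2e were not called in any comparison. Ces1d, the triacylglycerol hydrolase, ran from 584 to 1362 CPM in Vec, 980.3 to 1349 in Vec+BBR, 633 to 1068 in shRNA and 775 to 1384 in shRNA+BBR, and its differences lay between -0.22 and 0.25 on the log2 scale in the 4 comparisons. The widest of those intervals, for BBR in Vec mice, ran from -0.15 to 0.66, which includes both 0 and a rise of 0.66. Ces1e, egasyn, had 116 to 208 CPM in Vec and 89.7 to 151 in shRNA, with a difference of -0.41 and an interval of -0.75 to -0.07 (edgeR adjusted p = 0.102), which passed the threshold only without Vec replicate 1 (-0.51, edgeR adjusted p = 0.0405). Ces1g, a relative of human CES1, was between -0.27 and -0.28 in all 4 comparisons. It had 360.1 to 551 CPM in Vec, 338 to 445 in Vec+BBR, 324 to 491 in shRNA and 293 to 408 in shRNA+BBR. The lowest of its edgeR adjusted p-values was 0.130, and its unadjusted p was under 0.05 in each.

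Whether BBR acted differently in the 2 vector groups was tested as an interaction. By edgeR, 0 of 10 members were called, where 0.146% of all genes tested were, and DESeq2 and limma-voom also called 0. At an unadjusted p under 0.05 there were 3, namely Ces3a (0.82, interval 0.07 to 1.58), Ces1f (0.41, interval 0.03 to 0.79) and Ces1c (0.37, interval 0.02 to 0.73), with edgeR adjusted p-values between 0.235 and 0.244. The difference was 0.42 for Ces1b, with an interval of -0.20 to 1.04, and 0.27 for Ces2a, with an interval of -0.18 to 0.72. The difference in size of the BBR effect on Ces1b, Ces1c and Ces2a between knockdown and Vec mice thus did not pass this test.

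The remaining 9 carboxylesterase genes of the tables gave little signal, except for Ces2c and Ces2g. Ces1a, Ces1h, Ces2b, Ces2f, Ces4a and Ces5a were not tested, being at or near 0, and Ces2h was tested at 0.251 to 0.727 CPM. Ces2g, with 55.9 to 76.8 CPM in Vec and 50.6 to 60.02 in Vec+BBR, was lower with BBR, at -0.34 ± 0.0863 (log2, SE, edgeR adjusted p = 0.0118), and in shRNA mice it was at -0.35 ± 0.0860 (edgeR adjusted p = 0.014). The first of these calls was lost with library totals in place of TMM factors (-0.20). Ces2c was at -0.62 ± 0.197 in Vec mice (edgeR adjusted p = 0.0371), a call kept in 11 of 20 alternatives and lost with library totals, with the 2 groups alone and without any 1 of Vec replicates 1, 2, 3 and 5 and Vec+BBR replicates 2, 3 and 4. In shRNA mice Ces2c was at -0.13, with an interval of -0.54 to 0.27, and was not called (edgeR adjusted p = 0.668). Its transcript shares 42.2% of its stretches of 50 bases with other annotated genes. Neither gene was called for the knockdown. Among all genes tested, 7.88% were called lower and 7.58% higher with BBR in Vec mice. For the knockdown the shares were 7.91% and 5.28% under vehicle and 4.82% and 3.31% under BBR. Over the 3 tested genes, 2 were called by edgeR for BBR in Vec mice and 0 for either knockdown comparison. For the knockdown, 1 under vehicle and 2 under BBR had an unadjusted p under 0.05, and DESeq2 called 1 and 0, limma-voom 0 and 0.

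The lists of related pathways were chosen with earlier results of these data known. Of 22 tested target genes of CAR and PXR, receptors that induce drug metabolism, 8 were lower and 3 higher with BBR in Vec mice, with a median of -0.33 on the log2 scale. In shRNA mice 8 were lower and 3 higher, with a median of -0.32. Among all genes tested, 7.88% were called lower and 7.58% higher with BBR in Vec mice, and 7.28% and 8.37% in shRNA mice. The 3 of the 22 with the smallest adjusted p in Vec mice were all lower, and the 3 called higher are not named here. The cytochrome P450 Cyp2c50 fell from 2168 to 380.2 CPM (-2.51 ± 0.262, edgeR adjusted p = 1.03e-05) and Cyp2c29 from 2127 to 699 CPM (-1.61 ± 0.250, edgeR adjusted p = 0.000401). Por, the electron donor of these enzymes, fell from 978 to 509 CPM (-0.94 ± 0.170, edgeR adjusted p = 0.00114). In shRNA mice, Cyp2c50 (-1.27), Ugt1a1 (-0.59), which conjugates bilirubin, and Cyp2c29 (-1.05) were the leading calls. Of all genes tested, 7.91% were called lower and 5.28% higher for the knockdown under vehicle, and 4.82% and 3.31% under BBR. For the knockdown 3 of the 22 were lower and 1 higher under vehicle, and 3 lower and 4 higher under BBR. Under vehicle these were Aldh1a1 (-0.65), Aldh1a7 (-0.39) and Abcc3 (-0.46) lower and Cyp2b10 higher (0.87), calls that were kept in 20 of 20 alternatives for Aldh1a1, 11 for Aldh1a7, 9 for Abcc3 and 14 for Cyp2b10, and under BBR the leading ones were Abcc3 (-0.88), Cyp2c50 (1.32) and Cyp2b9 (-0.56).

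With BBR, 7.88% of all genes tested were called lower and 7.58% higher in Vec mice, and 7.28% and 8.37% in shRNA mice. With the knockdown, these shares were 7.91% and 5.28% under vehicle and 4.82% and 3.31% under BBR. Of the 18 tested other ester hydrolases and lipases, 3 were lower and 2 higher with BBR in Vec mice. Hepatic lipase Lipc (-0.65), paraoxonase Pon1 (-0.63) and the Wnt deacylase Notum (-1.04) were lower, and the cholesteryl ester hydrolase Nceh1 (0.50) and lipoprotein lipase Lpl (0.79) were higher, the call of Lpl being kept in 13 of 20 alternatives. In shRNA mice Lipc was lower (-0.57), and butyrylcholinesterase Bche (0.83), monoglyceride lipase Mgll (0.65) and esterase D, Esd (0.38), were higher, kept in 15 of 20 alternatives for Mgll and 14 for Esd. Under the knockdown with vehicle, Notum (-0.94), Esd (-0.51) and hormone-sensitive lipase Lipe (-0.43), a call kept in 15 of 20 alternatives, were lower. With BBR, 0 of the 18 were called by edgeR and limma-voom and 1 by DESeq2, and 4 had an unadjusted p under 0.05. Of the 12 genes of VLDL assembly, Tm6sf2 was lower with BBR in Vec mice (-0.68) and higher with the knockdown under BBR (0.57). P4hb (-0.39), a subunit of the triglyceride transfer complex, and Cideb (-0.40), which lipidates VLDL, were lower with the knockdown under vehicle, and Apoa4 (1.55) was higher with BBR in shRNA mice.

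Of the 16 nuclear receptors and regulators, 0 were called with BBR in Vec mice by edgeR, DESeq2 or limma-voom, with 2 at an unadjusted p under 0.05. By edgeR, 7.88% of all genes tested were called lower and 7.58% higher in that comparison. The knockdown under vehicle lowered Pparg and Cebpa (-0.45), a liver transcription factor, and under BBR it lowered Pparg. In shRNA mice BBR raised Pparg and lowered Rxra (-0.43), the dimer partner of PPARγ, a call kept in 11 of 20 alternatives. The median of these 16 genes was between -0.12 and -0.00 in the 4 comparisons.

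Across the 20 libraries, or only after group means were removed, some members moved together, in sets named here after their values were seen. Ces1b, Ces1c and Ces2a had Pearson correlations of log2 CPM between 0.87 and 0.94, and with the group means removed between 0.51 and 0.75. Ces1d, Ces1e, Ces1f and Ces1g, with Ces2e, had correlations between -0.21 and 0.86, and with the group means removed between 0.64 and 0.83. As a whole that set moved together only with the group means removed. Ces3a and Ces3b had 0.60, and 0.61 without the group means. The libraries share their scaling, and the part of reads shared between relatives in these values was not tested. Outside the family, the genes most like Ces1c were Sult2a7 (0.97) and Serpina1d (0.96), those most like Ces2a were Stard7 (0.96) and Serpina1d (0.95), and those most like Ces1b were Hpd (0.94) and Ahcy (0.93). Ces1f was most like Acadm and Vnn1 (both 0.90), and Ces3a was most like Aqp9 (0.89) and Dnajb11 (0.88), among 9783 genes searched over 20 libraries. These are orders of likeness over few groups, and say nothing of shared control.

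**Figure D5:**
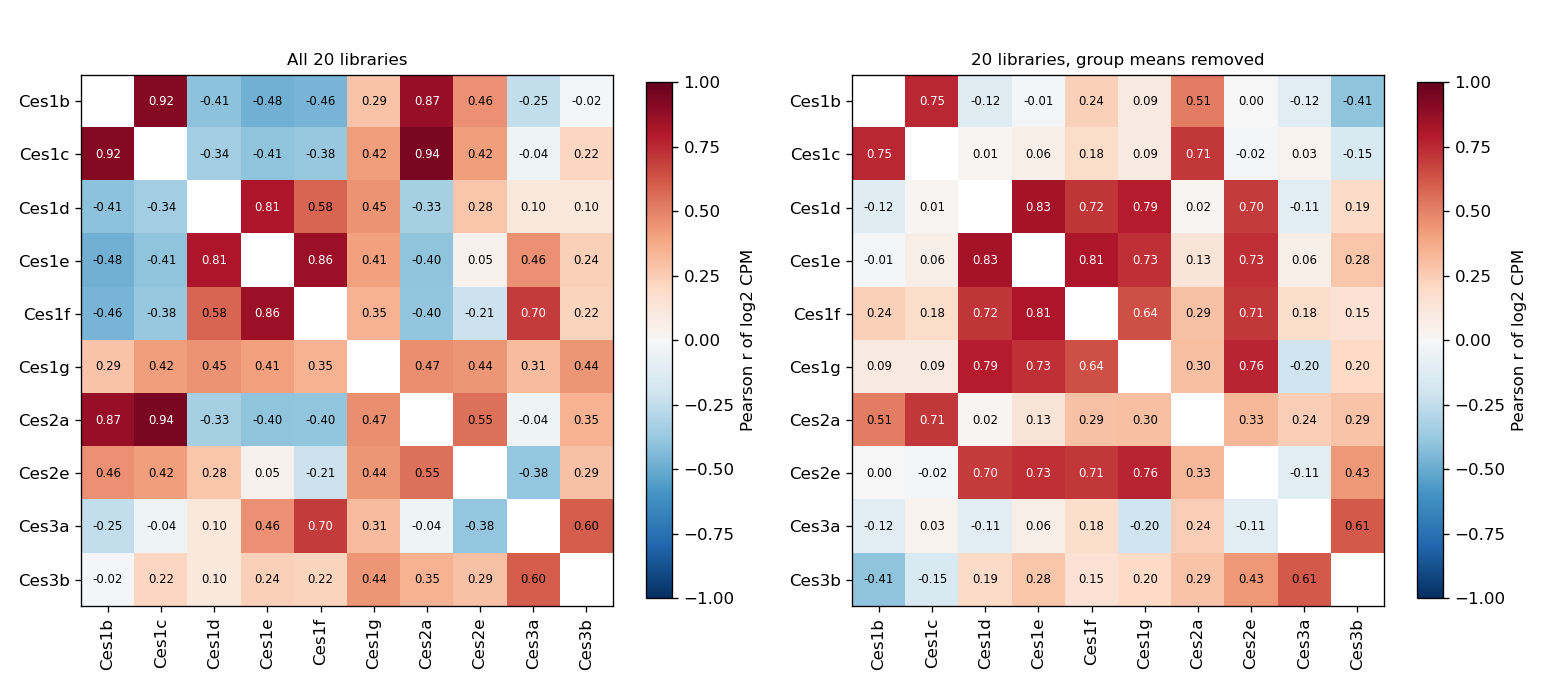
Pearson correlation of log2 CPM between members over 20 libraries, as measured (left) and after each group's mean was removed (right). Ces1b, Ces1c and Ces2a stay together in both, at 0.51 to 0.75 within groups.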

How the data were processed

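Liver RNA from 20 mice was sequenced after poly-A selection, 1 library per mouse, and grouped by the labels. The deposited expected counts were made by the authors, and between 91.9% and 93.3% of the counts in a library were whole numbers. The deposited FPKM values were scaled by the authors for length and depth and were used only to compare levels between genes. Per the labels the build was mm10. The aligner and counter are not given in the sources used here.

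Counts were rounded, filtered with filterByExpr (minimum 10, total 15) and scaled by TMM, and 4 group means were fitted with edgeR 4.0.16 (quasi-likelihood test, Benjamini-Hochberg over 12342 genes, threshold 0.05). The comparisons were BBR in each vector group, knockdown under each treatment, and their interaction. Members and lists were chosen with earlier results of these data known. Every member is named, and from each list at most the 3 genes with the smallest adjusted p per comparison, or all called when 5 or fewer were, except for a result that is not reported here. Likeness used genes with a mean count of at least 50. Alternatives were RLE factors, library totals, leaving out mitochondrial genes, other filters, DESeq2 1.42.0, limma-voom 3.58.1, the 2 groups alone, a replicate block, cut fractions and leaving out each replicate. The test was tested on simulated data. No 2 libraries were duplicates. Sequences were matched to GENCODE M21 and RefSeq.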

Additional observations from a re-analysis of the deposited data

How the results depend on the processing

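All calls of Ces1b, Ces1c, Ces2a and Ces1f, and that of Ces3a under vehicle, held under each alternative run. For the knockdown under BBR, 2 members were called with library totals and with the 2 groups alone (Ces1f in addition to Ces3a), 0 with limma-voom and 0 to 1 when a replicate was left out, the 1 being Ces3a without Vec+BBR replicate 3 and Ces1b without shRNA+BBR replicate 4. With unadjusted p under 0.05 the members called were 5, 5, 5, 6 and 3 for BBR in Vec, knockdown under BBR, knockdown under vehicle, BBR in shRNA and the interaction, and the genes called 3730, 3046, 3510, 4102 and 2281. Leaving out a replicate gave 1237 to 2395 genes for BBR in Vec, 538 to 1129 for the knockdown under BBR, 1015 to 2284 for the knockdown under vehicle, 661 to 2527 for BBR in shRNA and 5 to 122 for the interaction (18 in the fit reported). The 2 groups alone gave 1178 for BBR in Vec, and the interaction gave 330 genes with DESeq2, 30 with library totals and 11 with limma-voom.

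Signs changed only for values with no call. Ces2a under the knockdown with vehicle was -0.0001 and became 0.0027 (DESeq2), 0.0028 (RLE), 0.0033 (10 counts in every library), 0.0018 (cut fractions), 0.1137 (library totals), 0.0233 (limma-voom), 0.0029 (no mitochondrial genes), 0.0096 (no filter) and 0.0006 (2 groups), and -0.0775 to 0.1733 without a replicate. Ces1c there became 0.0038 with library totals, and Ces1e in the interaction -0.0195. In the interaction Ces1g and Ces2e became 0.0034 and 0.0094 (10 counts in every library), 0.0048 and 0.0102 (cut fractions), 0.003 and 0.008 (no mitochondrial genes), and ran from -0.0983 to 0.0941 and from -0.0818 to 0.0769 without a replicate. Without a replicate Ces1d ran from -0.2519 to 0.034 (knockdown under vehicle), -0.0009 to 0.2243 (BBR in shRNA) and -0.2574 to 0.0431 (interaction), and Ces3b from -0.2163 to 0.0138 (BBR in shRNA). The cause of these changes was not tested.

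Same-numbered mice correlated over 0.1, after group means were removed, in 1 of 5 numbers for BBR in Vec and 3 of 5 for BBR in shRNA. For both knockdown comparisons it was 0 of 5. Differently numbered mice were not set beside these values, so they cannot decide whether the numbers pair mice. The replicate block changed no member's call, with 3 members called for BBR in Vec and 4 for BBR in shRNA, and gave 0.0225 for Ces2a under vehicle and 0.0009 and 0.0069 for Ces1g and Ces2e in the interaction. Among the named genes outside the family, calls were lost in 7 of 200 refits for BBR in Vec, all of Lpl, 38 of 220 for BBR in shRNA, 33 of 220 for the knockdown under vehicle and 0 of 100 under BBR, and for Ces2c and Ces2g together in 10 of 40 for BBR in Vec. The losses with BBR in shRNA include Rxra, Esd, Mgll and Apoa4, and those under vehicle were of Abcc3, Aldh1a7, Cyp2b10, Lipe and Cideb. How reads shared by Ces3a and Ces3b, by Ces1b and Ces1c, or by Ces2a and Gm7208, were assigned was not tested.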
